A study of Mus musculus with 18 samples.

Results

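De novo fatty acid synthesis turns surplus carbon into fat. The 10 genes described here are the mouse genes whose symbols equal Fasn, Acaca, Acacb, Acly, Scd1, Scd2, Elovl6, Me1, Mlxipl and Srebf1, and all 10 were found among the 45151 symbols that the deposited expression files of the 3 depots share. RNA sequencing was done on inguinal white adipose (iWAT) adipocytes (n=6), epididymal white adipose (eWAT) adipocytes (n=6) and brown adipose tissue (BAT) (n=6) of male C57BL/6J mice aged 16 weeks, labelled strain C57BL/6 and genotype wild type and kept on regular chow. All 3 groups shared that strain, genotype, sex, age and diet, and the labels name no transgene or drug. The iWAT and eWAT samples were floating adipocytes released by collagenase and washed, whereas the BAT samples were whole tissue frozen directly, so that depot and preparation cannot be told apart. The labels do not say that every sample came from its own mouse, and the p-values measure the spread between these samples only.

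In this pathway, ATP-citrate lyase, encoded by Acly, cuts cytosolic citrate into acetyl-CoA, and acetyl-CoA carboxylase carboxylates it to malonyl-CoA. Fatty acid synthase, encoded by Fasn, joins these units into palmitate with NADPH as the reductant, after which Elovl6 elongates palmitate and the stearoyl-CoA desaturases add a double bond. Srebf1, which encodes SREBP-1, and Mlxipl, which encodes the carbohydrate-sensing factor ChREBP, drive transcription of these enzymes in response to insulin and glucose. Both brown and white adipocytes run the pathway, and in brown fat it works alongside the burning of fatty acids for heat.

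The files also differed in how a gene was listed. In iWAT and BAT each gene was 1 merged row over its exons, and in eWAT each gene was listed as its separate transcripts, so the transcript with the most reads was used there. That row leaves out reads that fall only on other transcripts. The kind of row and the eWAT depot cannot be told apart. Of the 10 genes, only Scd2 had an identical row in all files. The total reads behind the values were 22929576 to 32141048 in iWAT, 26607733 to 34048018 in eWAT and 26706786 to 34512470 in BAT. Levels are given below in RPKM (reads per kilobase of row per 1e+06 reads). They compare genes listed by the same kind of row, and a merged row longer than the transcript can lower the value. Differences are log2 fold changes of the reads with their standard error (SE), from edgeR's quasi-likelihood test of 18383 symbols with Benjamini-Hochberg adjustment and a threshold of 0.05. In bulk samples, fewer cells of a type and less RNA per cell cannot be told apart.

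The labelled depots were checked by the adipokine Adipoq and by Ucp1, the uncoupling protein of brown adipocytes. Ucp1 was 969 to 1509 RPKM in BAT, 0.494 to 5.76 in iWAT and 0.127 to 0.551 in eWAT. Adipoq was 1485 to 2147 RPKM in iWAT, 868 to 2351 in eWAT and 258 to 394 in BAT. A few libraries stood apart in markers of other cells. The eWAT sample numbered 15 in its title had summed macrophage markers of 2018 RPKM over 6 of 6 genes, against 139 to 484 in the other eWAT samples, 27.1 to 135 in iWAT and 20.2 to 47.9 in BAT. The eWAT samples numbered 14 and 15 had summed epididymis markers of 96.7 and 84.2 RPKM over 5 of 5 genes, whereas all 5 were at 0 in iWAT. The BAT sample numbered 12 had summed skeletal muscle markers of 1340.1 RPKM, against 0.550 to 119 in the other BAT samples.

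**Figure D1:**
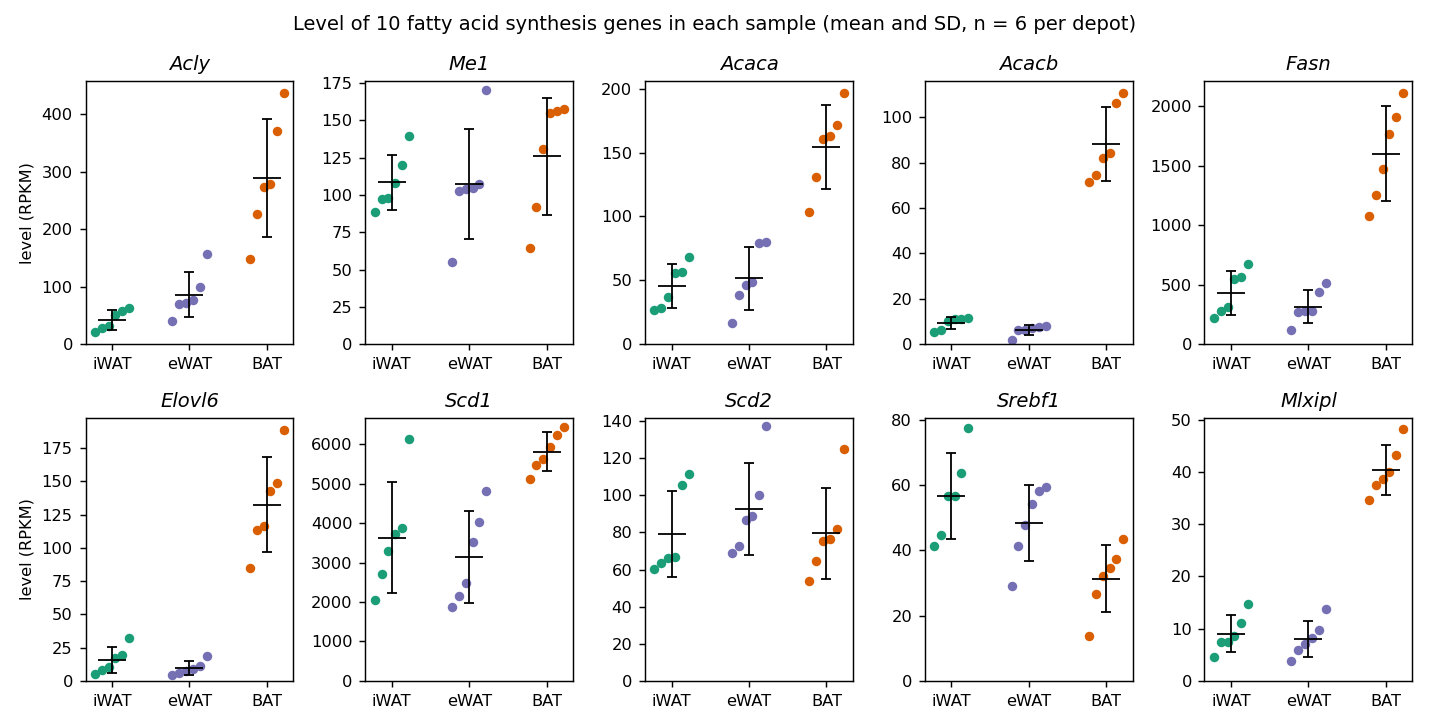
Each panel plots 1 gene, with the level in RPKM on the vertical axis and the 3 depots on the horizontal axis. Points are the 6 samples of a depot in ascending order, and the bar and whiskers are the mean and SD. Acaca, Acacb, Fasn, Elovl6 and Mlxipl are higher in all BAT samples than in any sample of the other depots. Srebf1 has its lowest mean RPKM in BAT, although its reads did not pass the test between eWAT and BAT.

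The depots differed mainly between BAT and the white adipocytes. In the iWAT and BAT comparison 8 of the 10 genes passed the test, beside 65.2% of all symbols tested. Of these, 7 were higher in BAT, beside 28.1% of all symbols, and 1, Srebf1, was higher in iWAT, beside 37.1% of all symbols. In the eWAT and BAT comparison 8 of 10 passed, beside 71.1% of all symbols. All 8 were higher in BAT, beside 31.0%, and none was higher in eWAT, beside 40.1%. In the iWAT and eWAT comparison 4 of 10 passed, beside 25.8% of all symbols. All 4 were higher in iWAT, beside 15.2%, and none was higher in eWAT, beside 10.6%. The median log2 fold change of the 10 genes was -2.01 for iWAT against BAT and -2.59 for eWAT against BAT, where the median of all symbols was 0.11 and 0.15. For iWAT against eWAT it was 0.66 beside 0.04. Both comparisons with BAT use the same 6 BAT samples. Without the 3 libraries that carried epididymis, macrophage or muscle markers, the counts were 8, 8 and 1. Between iWAT and eWAT 4 genes then had an unadjusted p under 0.05 by edgeR. In that fit 11616 of 17743 symbols were called between eWAT and BAT. The counts of all symbols for the other 2 comparisons are not given here, so the 1 is not read as a result about the 10 genes.

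The 10 genes together took a mean of 6.43% ± 0.80 (SD, n=6) of all reads in BAT, 3.21% ± 1.19 in iWAT and 2.03% ± 0.71 in eWAT. The BAT samples ranged from 5.50% to 7.68%, the iWAT samples from 1.89% to 5.28% and the eWAT samples from 1.13% to 2.99%. Most of these reads came from Scd1, at a mean of 4.03% of all reads in BAT, 2.52% in iWAT and 1.52% in eWAT. By mean RPKM, Scd1 was 1 and Fasn 2 in the order of the 10 genes in every depot. Below them the order changed. Me1 came at place 3 in iWAT and eWAT and at place 6 in BAT, Srebf1 fell at place 10 in BAT, 5 in iWAT and 7 in eWAT, and Acacb went from place 9 in iWAT and 10 in eWAT to 7 in BAT. Row lengths differ between eWAT and the other depots, such as 4396 against 7972 bases for Acly. The eWAT places are therefore not on the same scale.

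Acly, the enzyme that makes cytosolic acetyl-CoA (chr11:100337666-100389314 in mm9, minus strand), had its lowest mean RPKM in iWAT. Its lowest, median and highest levels were 149, 276 and 437 RPKM in BAT, 21.9, 41.7 and 62.4 in iWAT and 41.0, 74.9 and 157 in eWAT. In RPKM the iWAT and BAT samples did not overlap, and the highest eWAT sample, numbered 14, lay above the lowest BAT sample, numbered 11. In reads, eWAT and BAT did not overlap. The most Acly reads in eWAT were 18394 of 26607733, in eWAT 14, and the fewest in BAT 36236 of 30531973, in BAT 11. The reads of Acly were 7.77-fold lower in iWAT relative to BAT (log2 fold change -2.96, SE 0.35, adjusted p = 6.99e-07 by edgeR). In eWAT they were 7.21-fold lower than in BAT (-2.85, SE 0.35, adjusted p = 8.83e-07 by edgeR), and with row length as an offset the difference was smaller (-1.99, adjusted p = 3.25e-05). iWAT and eWAT did not pass the test in reads (-0.11, SE 0.33, adjusted p = 0.843), although the mean level per length was 42.3 RPKM in iWAT and 86.2 in eWAT. The merged row of Acly is 7972 bases long and the eWAT transcript 4396, and per length the log2 difference of iWAT to eWAT was -0.97 (adjusted p = 0.0206 by edgeR).

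Me1, the malic enzyme that yields NADPH in the cytosol (chr9:86474970-86589947, minus strand), had means of 109 RPKM in iWAT, 107 in eWAT and 126 in BAT. Its lowest, median and highest levels were 64.7, 143 and 158 RPKM in BAT, 88.3, 103 and 139 in iWAT and 54.8, 105 and 171 in eWAT. All 3 depots overlapped. Me1 did not pass the test between iWAT and BAT (log2 fold change -0.41, SE 0.24, adjusted p = 0.152 by edgeR). Without the BAT sample numbered 11, its lowest, it passed (-0.56, adjusted p = 0.0303). Between eWAT and BAT it passed (-0.65, SE 0.25, adjusted p = 0.0242), and this call was lost when any of eWAT 15, BAT 6, BAT 7 or BAT 8 was left out, with adjusted p between 0.0511 and 0.0612. The call was also lost with row length as an offset (-0.48, adjusted p = 0.0832), without trimmed mean of M values (TMM) factors (-0.40, adjusted p = 0.126) and with limma on log2(RPKM + 0.1) (-0.23, adjusted p = 0.375), and it turned to 1.55 with summed transcript rows.

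The 2 acetyl-CoA carboxylases, which make malonyl-CoA, both stood higher in BAT, and Acacb by more. Acaca encodes the cytosolic enzyme (chr11:83943174-84215153, plus strand), and Acacb the enzyme at the outer mitochondrial membrane, whose malonyl-CoA restrains the entry of fatty acids into mitochondria (chr5:114596544-114706885, plus strand). The lowest, median and highest levels of Acaca were 103, 162 and 197 RPKM in BAT, 27.1, 46.4 and 68.5 in iWAT and 16.4, 47.8 and 80.3 in eWAT. Those of Acacb were 71.3, 83.3 and 111 RPKM in BAT, 5.21, 10.6 and 11.7 in iWAT and 1.89, 6.75 and 7.94 in eWAT. For both genes every BAT sample was above every iWAT and eWAT sample.

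Acaca reads were 3.85-fold lower in iWAT relative to BAT (log2 fold change -1.95, SE 0.33, adjusted p = 4.21e-05 by edgeR) and 5.66-fold lower in eWAT (-2.50, SE 0.34, adjusted p = 2.46e-06). Acacb reads were 10.8-fold lower in iWAT (-3.44, SE 0.29, adjusted p = 6.18e-09) and 18.9-fold lower in eWAT (-4.24, SE 0.30, adjusted p = 4.52e-10). Per length, the difference of Acaca for eWAT against BAT was smaller, at -1.82 (adjusted p = 5.52e-05 by edgeR). Acacb was at a mean of 58.1% ± 8.5 (SD, n=6) of the Acaca level in BAT, 21.3% ± 4.9 in iWAT and 12.6% ± 3.0 in eWAT. The Acaca row is 15210 bases long in iWAT and BAT and 9513 in eWAT, and the Acacb row 9785 and 8790. The eWAT ratio in RPKM is therefore not on the same scale as the other 2. The ratio was 50.5% to 72.2% in the BAT samples and at most 30.2% in any other sample, so BAT overlapped neither of the other depots in it. Acaca shares sequence with another locus, which is described further on with the genes that vary like the 10.

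Fasn, whose product is the multienzyme that builds palmitate (chr11:120667254-120685861, minus strand), was the second most abundant of the 10. Its lowest, median and highest levels were 1076, 1620.4 and 2112 RPKM in BAT, 223, 429 and 675 in iWAT and 122, 277 and 512 in eWAT. Every BAT sample was above every sample of the other depots. The reads were 4.20-fold lower in iWAT relative to BAT (log2 fold change -2.07, SE 0.34, adjusted p = 2.82e-05 by edgeR) and 6.40-fold lower in eWAT (-2.68, SE 0.35, adjusted p = 1.47e-06). Fasn did not pass the test between iWAT and eWAT (0.61, SE 0.33, adjusted p = 0.183).

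Elovl6, which elongates palmitate to stearate (chr3:129234922-129341413, plus strand), differed from BAT by an amount close to that of Acacb. Its lowest, median and highest levels were 85.1, 129.6 and 189 RPKM in BAT, 5.34, 14.1 and 32.5 in iWAT and 4.48, 8.10 and 19.0 in eWAT. The BAT samples lay above all the others, and within iWAT the samples spread from 5.34 in the sample numbered 14 to 32.5 in the sample numbered 7. The reads were 9.69-fold lower in iWAT relative to BAT (log2 fold change -3.28, SE 0.43, adjusted p = 2.03e-06 by edgeR) and 17.3-fold lower in eWAT (-4.12, SE 0.44, adjusted p = 1.48e-07). The difference between iWAT and eWAT did not pass (0.84, SE 0.40, adjusted p = 0.129), and it passed without the eWAT sample numbered 14 (1.17, adjusted p = 0.0335).

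The 2 desaturases listed, Scd1 and Scd2, introduce a double bond into stearate and palmitate and did not follow the same course. Scd1 (chr19:44466831-44482199, minus strand) was the most abundant of the 10, with lowest, median and highest levels of 5109, 5786 and 6441 RPKM in BAT, 2058, 3517 and 6138 in iWAT and 1869, 3012 and 4825 in eWAT. The eWAT and BAT samples did not overlap, while 1 iWAT sample, numbered 7, reached the BAT range. Scd1 reads were 1.80-fold lower in iWAT relative to BAT (log2 fold change -0.84, SE 0.27, adjusted p = 0.00956 by edgeR) and 3.10-fold lower in eWAT (-1.63, SE 0.27, adjusted p = 2.98e-05), a difference that was -1.11 per length and -0.96 with limma on log2(RPKM + 0.1). Among the genes higher in BAT it had the smallest spread there relative to its mean, with an SD of 495 around a mean of 5806 RPKM.

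Scd2 (chr19:44368166-44381354, plus strand) was 53.7, 76.1 and 125 RPKM at its lowest, median and highest in BAT, 60.3, 66.6 and 111 in iWAT and 68.6, 87.8 and 138 in eWAT. All 3 depots overlapped. It passed no test: the log2 fold change was -0.19 (SE 0.23, adjusted p = 0.482 by edgeR) for iWAT against BAT, -0.02 (SE 0.23, adjusted p = 0.937) for eWAT against BAT and -0.17 (SE 0.23, adjusted p = 0.632) for iWAT against eWAT. Its sign turned under other scalings, such as 0.22 for eWAT against BAT without TMM factors. Scd2 stood at 1.36% ± 0.36 (SD, n=6) of the Scd1 level in BAT, 2.29% ± 0.60 in iWAT and 3.23% ± 1.15 in eWAT. The Scd1 row is 6946 bases long in iWAT and BAT and 4837 in eWAT, so the eWAT ratio is not on the same scale. The desaturases are close paralogs. Of the 30-base words of the annotated Scd1 transcripts, 5.44% also occur in Scd2 and 6.09% in Scd3, so part of their reads cannot be assigned with certainty.

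Srebf1 and Mlxipl, which encode the transcription factors, went in opposite directions between iWAT and BAT. Mlxipl (chr5:135582761-135614254, plus strand) was 34.6, 39.3 and 48.2 RPKM at its lowest, median and highest in BAT, 4.54, 8.04 and 14.8 in iWAT and 3.80, 7.59 and 13.8 in eWAT. Every BAT sample was above every iWAT and eWAT sample. Its reads were 5.09-fold lower in iWAT relative to BAT (log2 fold change -2.35, SE 0.27, adjusted p = 4.33e-07 by edgeR) and 8.70-fold lower in eWAT (-3.12, SE 0.28, adjusted p = 1.20e-08). The merged row of Mlxipl is 5369 bases long and the eWAT transcript 3638. Per length the eWAT difference was -2.56, and with limma on log2(RPKM + 1) it was -2.27.

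Srebf1 (chr11:59995972-60036083, minus strand) was 13.8, 33.4 and 43.4 RPKM at its lowest, median and highest in BAT, 41.3, 56.6 and 77.5 in iWAT and 28.9, 50.9 and 59.4 in eWAT. The depots overlapped, with the lowest iWAT sample below the highest BAT sample. Srebf1 reads were 1.57-fold higher in iWAT relative to BAT (log2 fold change 0.65, SE 0.23, adjusted p = 0.0204 by edgeR), a call that was lost when TMM factors were computed on all symbols (0.51, adjusted p = 0.0661). Between eWAT and BAT the reads did not pass (-0.05, SE 0.23, adjusted p = 0.848), and per length the same comparison gave 0.37 (adjusted p = 0.155). The merged row is 5757 bases long and the eWAT transcript 4298. On log2(RPKM + 0.1), limma gave 0.66 for eWAT against BAT (adjusted p = 0.0156). The merged row of Srebf1 also spans exons of Rai1 on the other strand, with 109 shared exon bases. The library kit is not stated to keep the strand, so reads of the 2 genes there cannot be told apart. The eWAT transcripts of Srebf1 with different first exons had 38460 and 38303 reads in all, nearly all of them the same reads by position, so these rows do not separate the SREBP-1 isoforms.

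**Figure D2:**
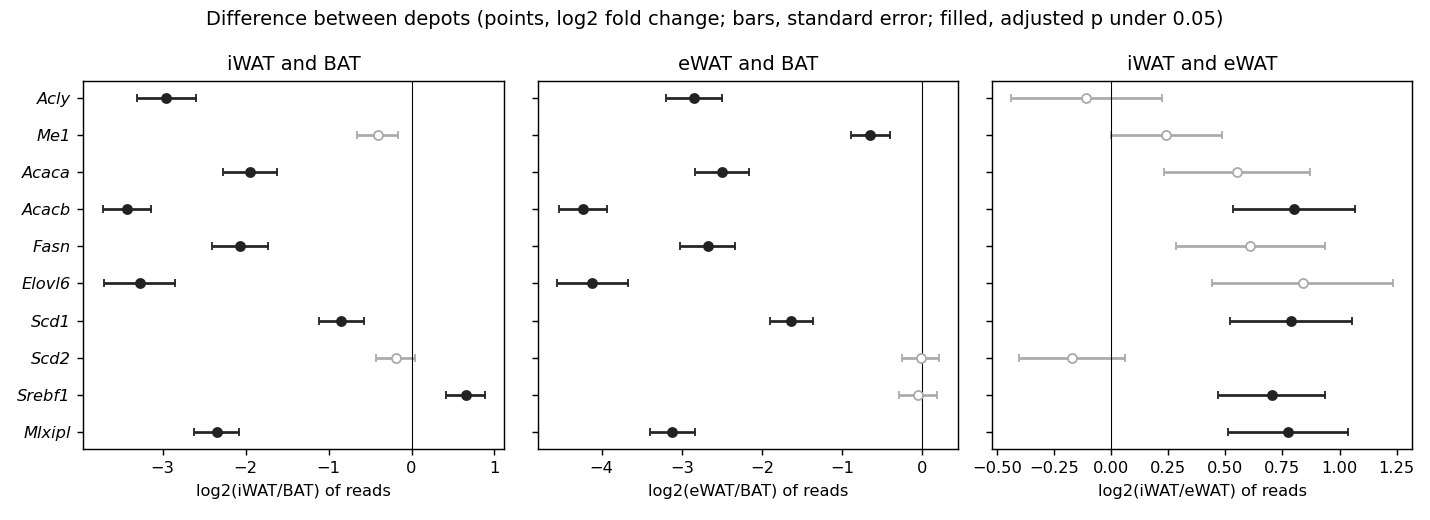
The log2 fold change of reads is on the horizontal axis and the 10 genes on the vertical axis, in 1 panel for each comparison. Bars are standard errors, and filled points passed the test. In both comparisons with BAT, Acacb and Elovl6 lie farthest to the left, between -3.28 and -4.24, while Scd2 lies near 0.

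The 250 bases before the annotated start of Fasn, Acly, Acacb and Elovl6 are shown, as 4 of the genes that were higher in BAT in both comparisons. They come from RefSeq on GRCm38.p6, whereas the expression files use mm9, and read 5′ to 3′ towards the gene. Capitals mark matches on either strand to 4 motifs. The E-box was searched as CACGTG. The CCAAT box was searched by those letters. The GC box was searched as GGGCGG. A sterol response element core was searched as CACCCCAC.
Fasn (chr11:120824548-120824797, - strand): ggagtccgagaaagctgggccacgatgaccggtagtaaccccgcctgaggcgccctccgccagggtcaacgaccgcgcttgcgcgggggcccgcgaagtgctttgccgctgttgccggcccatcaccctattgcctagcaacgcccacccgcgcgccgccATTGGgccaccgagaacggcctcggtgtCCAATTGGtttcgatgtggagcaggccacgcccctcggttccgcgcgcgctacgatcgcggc
Acly (chr11:100528001-100528250, - strand): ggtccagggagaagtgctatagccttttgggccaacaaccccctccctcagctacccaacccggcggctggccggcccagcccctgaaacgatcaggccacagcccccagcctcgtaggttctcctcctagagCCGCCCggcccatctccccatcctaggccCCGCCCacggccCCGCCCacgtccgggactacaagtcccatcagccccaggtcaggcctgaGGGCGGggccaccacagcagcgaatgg
Acacb (chr5:114165268-114165517, + strand): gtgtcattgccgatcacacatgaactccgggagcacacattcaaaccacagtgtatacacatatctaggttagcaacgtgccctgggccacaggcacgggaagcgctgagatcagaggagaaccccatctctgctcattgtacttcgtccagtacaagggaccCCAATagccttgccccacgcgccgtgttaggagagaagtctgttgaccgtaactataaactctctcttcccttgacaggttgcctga
Elovl6 (chr3:129532136-129532385, + strand): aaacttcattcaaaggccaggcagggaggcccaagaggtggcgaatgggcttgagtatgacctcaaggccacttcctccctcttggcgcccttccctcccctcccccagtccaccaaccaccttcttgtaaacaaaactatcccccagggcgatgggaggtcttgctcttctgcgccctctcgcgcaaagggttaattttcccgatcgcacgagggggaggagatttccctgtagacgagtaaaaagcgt

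In the Fasn window CCAAT matched 3 times, at 90, 62 and 59 bases before the start, and the last 2 overlap. The Acly window held 4 GC boxes, the first 117 and the last 27 bases before the start. The Acacb window held 1 CCAAT match at 87 bases before the start, and the Elovl6 window none of the 4 motifs. A table of promoters held 12 windows for 8 of the 10 genes and no entry for Scd1 and Scd2. CCAAT was found for 5 of these 8 genes, beside 33.8% of all 32851 windows, and the GC box for 4 of 8, beside 32.7%. The E-box was found in 1 Mlxipl window, beside 6.02% of all windows, and CACCCCAC in none, beside 2.58%. A gene with several windows had more bases searched than a single window, and a match is only a match of letters.

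How a gene was counted in eWAT bears on every comparison with that depot. When the reads of all eWAT transcript rows of a gene were summed, which counts a read again for each transcript that shares its exon, the median log2 fold change of all symbols for eWAT against BAT went from 0.15 to 1.95. Acacb, Elovl6 and Acaca were still lower in eWAT than in BAT, at -2.30 (adjusted p = 2.19e-07 by edgeR), -2.89 (adjusted p = 3.12e-06) and -0.72 (adjusted p = 0.0423). Fasn and Mlxipl kept the direction without passing, at -0.23 and -0.29. The other 5 genes turned to higher in eWAT, and Srebf1, Scd2 and Me1 passed the test in that direction. Over all symbols 16763 of 19030 were called with these rows, 14779 of them higher in eWAT. With row length as an offset, 7 of 10 passed, beside 14308 of 18383 symbols. All 7 were lower in eWAT, whereas 10397 of the 14308 called symbols were higher in eWAT.

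**Figure D3:**
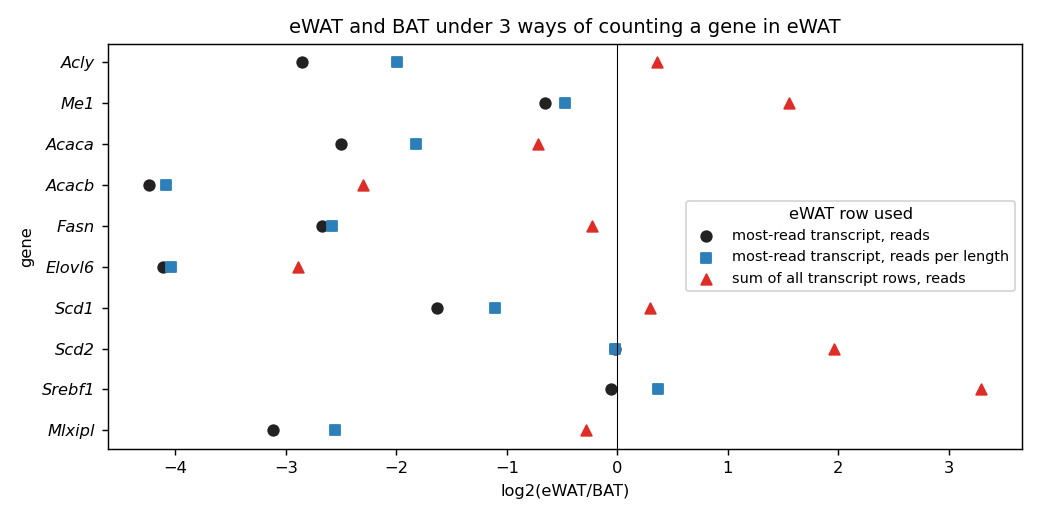
The log2 fold change of eWAT against BAT is on the horizontal axis and the 10 genes on the vertical axis. Circles use reads of the most-read eWAT transcript, squares the same reads with row length as an offset, and triangles the sum of all transcript rows. Acacb, Elovl6 and Acaca stay below 0 by all 3, from -4.24 to -0.72.

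Between iWAT and eWAT the 4 genes that passed were Acacb, Mlxipl, Scd1 and Srebf1. The log2 fold changes were 0.80 (SE 0.27, adjusted p = 0.0331 by edgeR) for Acacb, 0.77 (SE 0.26, adjusted p = 0.0358) for Mlxipl, 0.79 (SE 0.27, adjusted p = 0.0354) for Scd1 and 0.70 (SE 0.23, adjusted p = 0.0332) for Srebf1. All 10 genes overlapped in RPKM between the 2 depots, on unlike rows. The overlap of other symbols was not counted, so this is not a trait of the 10. Without iWAT 7 or without iWAT 11 no gene passed in edgeR (4 genes at an unadjusted p under 0.05), and without eWAT 13, eWAT 15 or iWAT 15 only 1 did. Without eWAT 11 or without iWAT 12, 2 passed. When a library was left out, 3971 to 5195 of all symbols were called. With row length as an offset 2 of the 10 passed, Acacb higher in iWAT and Acly higher in eWAT, beside 9342 of 18383 symbols. With the summed transcript rows 9 passed, all higher in eWAT. There 15550 of 19030 symbols were called, and the median log2 fold change of all symbols was -1.82. Because shared reads are counted again, these 9 calls do not show a direction for the 10 genes. The calls between the white depots depended on the row used.

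The 10 genes varied together among samples of the same depot. After each depot's mean of log2(RPKM + 0.1) was removed, the 45 pairs had Pearson correlations from 0.17 to 0.97 over 18 samples, with a median of 0.71. No pair was below 0, and 39 were above 0.5. The samples share libraries and depth, RPKM carries no TMM factors, and these correlations are descriptions only. No other set of genes was measured in this way, so the values do not set the 10 apart from other genes. The sample eWAT 15, with a mean deviation of -0.97, enters every pair. Fasn and Acaca were the closest pair, at 0.97, followed by Fasn and Acly at 0.94 and Fasn and Elovl6 at 0.91. Scd1 and Srebf1 were the least alike, at 0.17. Srebf1 and Scd1 also had the lowest medians with the other genes, at 0.57 each, against 0.80 for Acly.

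In 6 of the 18 samples all 10 genes deviated in 1 direction. They were all above the depot mean in iWAT 7 and BAT 6, with mean deviations of 0.58 and 0.42 on the log2 scale. All were below it in iWAT 13, iWAT 14, eWAT 15 and BAT 11, by -0.48, -0.56, -0.97 and -0.54. In eWAT 15, Acacb was 1.89 RPKM, against 6.28 to 7.94 in the other eWAT samples, and Fasn 122 against 269 to 512. The same sample had the highest macrophage markers and the lowest Adipoq of eWAT, at 868 RPKM against 1697 to 2351, and the part of these in its levels was not tested. In iWAT 7, where the 10 genes were high, macrophage markers were also the highest of iWAT, at 135 RPKM against 27.1 to 88.3. Its Adipoq was the lowest of iWAT, at 1485 RPKM against 1744 to 2147. BAT 6, the other sample with all 10 genes above, had the lowest macrophage markers of BAT, at 20.2 RPKM. BAT 11 was the lowest BAT sample for 7 of the 10 genes, including Srebf1 at 13.8 RPKM, and had no marker of muscle, macrophages or epididymis above the range of the other BAT samples. Its summed endothelial markers were the highest of BAT, at 80.2 RPKM against 42.0 to 66.3. Those of iWAT 14 were 133 RPKM, against 23.0 to 67.6 in the other iWAT samples. In iWAT 13 and eWAT 15 they were 40.5 and 76.1 RPKM, within the range of their depots. The part of these cells in the levels was not tested.

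**Figure D4:**
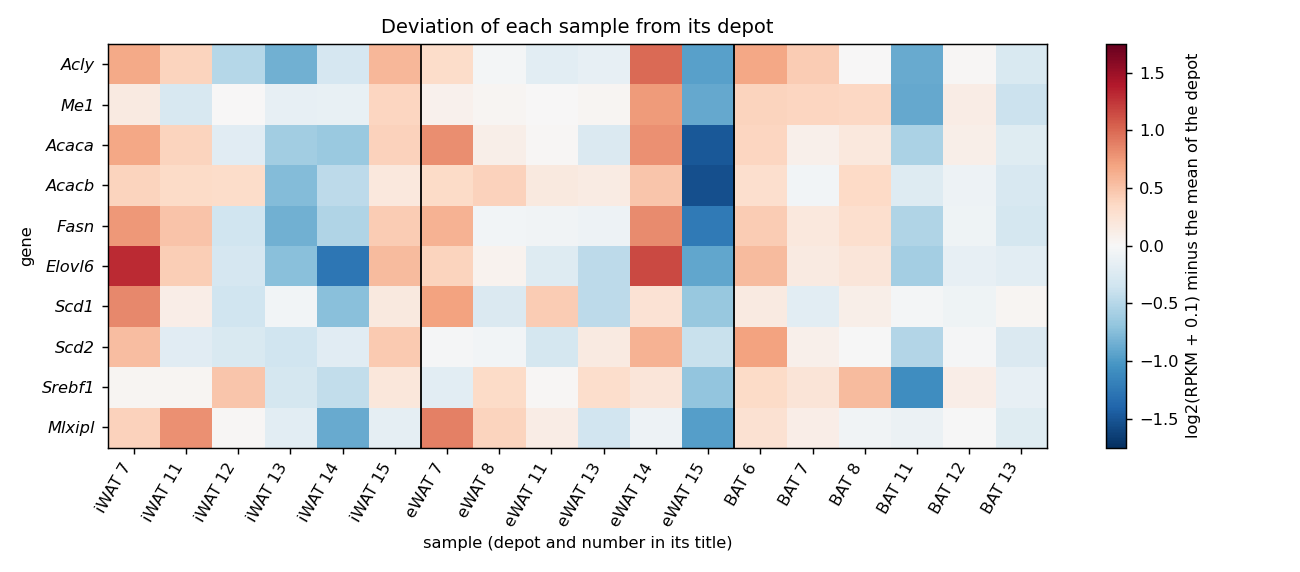
Colour gives log2(RPKM + 0.1) of a gene in a sample minus the mean of its depot, red above and blue below. Columns are the 18 samples, named by depot and the number in the title, and rows are the 10 genes. The columns of iWAT 7 and BAT 6 are red, and those of iWAT 13, iWAT 14, eWAT 15 and BAT 11 blue, for all 10 genes.

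Among the 4092 other symbols with a mean of at least 5 RPKM in every depot, 5 were most like the mean of the 10 genes by this measure over 18 samples. They were LOC100503180 (r = 0.98), LOC100503206 (0.95), AK150979 (0.94), Ankrd57 (0.91) and Steap4 (0.89), which encodes a metalloreductase. The first 3 share sequence with the 10 genes themselves. LOC100503180 (chr12:10163236-10164975) and LOC100503206 (chr12:10160675-10161785) are single-exon loci, and 86.0% and 84.1% of their 30-base words in mm9 occur in annotated Acaca transcripts. AK150979 (chr11:100376298-100389198, plus strand) lies within the row of Acly on the minus strand. Reads of these loci and of Acaca and Acly therefore cannot be fully separated. LOC100503180 was at a mean of 158 RPKM in BAT, 39.1 in iWAT and 27.1 in eWAT. Ankrd57 and Steap4 varied with the 10 genes within depots but were lower in BAT, at 9.79 and 32.6 RPKM, than in iWAT, at 93.2 and 273, or in eWAT, at 42.4 and 233.

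Other genes around the pathway were described by 4 lists holding 70 genes, of which 67 had enough reads to be tested. In iWAT against BAT 34 of the 67 were higher in BAT and 16 higher in iWAT, with a median log2 fold change of -0.36, beside 28.1% and 37.1% of all symbols and a median of 0.11. In eWAT against BAT 38 were higher in BAT and 15 higher in eWAT, with a median of -0.52, beside 31.0%, 40.1% and 0.15 over all symbols. In iWAT against eWAT 18 were higher in iWAT and 2 higher in eWAT, beside 15.2% and 10.6% of all symbols. The split depended on how eWAT was counted, for these genes and for all symbols. With row length as an offset 29 of 53 called pathway genes were higher in eWAT than in BAT. Over all symbols 10397 of 14308 called ones were, with a median log2 fold change of 0.59.

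Of the 18 genes that supply acetyl-CoA and NADPH, 12 were higher in BAT than in iWAT and 4 lower, beside 28.1% and 37.1% of all symbols. Among those with at least 5 RPKM in the higher depot, the largest differences were in the pyruvate dehydrogenase subunits Pdhb and Pdha1, which lead glycolytic carbon into mitochondrial acetyl-CoA. Pdhb was at a mean of 147 ± 21.3 RPKM (SD, n=6) in BAT, 31.8 ± 2.25 in iWAT and 51.6 ± 9.92 in eWAT. The log2 fold change was -2.39 (SE 0.15, adjusted p = 1.00e-10 by edgeR) for iWAT against BAT and -2.82 (SE 0.15, adjusted p = 9.80e-12) for eWAT against BAT, where it was -1.74 per length. Pdha1 was at 382 ± 38.9 RPKM in BAT, 91.3 ± 10.5 in iWAT and 94.8 ± 21.1 in eWAT, with log2 fold changes of -2.24 (SE 0.15, adjusted p = 3.42e-10 by edgeR) and -2.70 (SE 0.16, adjusted p = 2.53e-11). Between the white depots the genes named were Idh2, a mitochondrial isocitrate dehydrogenase (log2 fold change 0.80, SE 0.10, adjusted p = 1.99e-05 by edgeR), and Acss2, which makes acetyl-CoA from acetate (0.77, SE 0.28, adjusted p = 0.0490). Per length Acss2 went the other way, at 13.6 RPKM in iWAT and 33.3 in eWAT (-1.24, adjusted p = 0.00109 by edgeR).

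Of 17 genes of elongation and desaturation tested, 6 were higher in BAT and 6 higher in iWAT, which is near the 28.1% and 37.1% of all symbols. Elovl3, an elongase of very long chains, had 3 to 10 reads in the iWAT samples, 1 to 10 in eWAT and 419 to 2592 in BAT. Its level in BAT spread from 7.27 to 51.4 RPKM, and its log2 fold change was -7.72 (SE 0.63, adjusted p = 3.82e-09 by edgeR) for iWAT and -8.66 (SE 0.67, adjusted p = 1.42e-09) for eWAT. Fads3, a gene of the fatty acid desaturase cluster, went the other way, at 6.53 ± 2.23 RPKM (SD, n=6) in BAT, 82.4 ± 18.5 in iWAT and 124 ± 22.8 in eWAT. Its log2 fold change was 3.49 (SE 0.20, adjusted p = 3.14e-11 by edgeR) for iWAT against BAT and 3.84 (SE 0.20, adjusted p = 8.43e-12) for eWAT. Scd3, a paralog of Scd1, and Tecr, the last enzyme of the elongation cycle, were higher in iWAT than in eWAT in reads, at 0.89 (SE 0.27, adjusted p = 0.0220 by edgeR) and 0.48 (SE 0.13, adjusted p = 0.00940), and per length Tecr did not pass (0.22, adjusted p = 0.170).

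Of 23 regulators tested, 8 were higher in BAT than in iWAT and 6 lower, beside 28.1% and 37.1% of all symbols. Against eWAT, 11 were higher in BAT and 5 lower, beside 31.0% and 40.1%. With row length as an offset this turned to 5 higher in BAT and 11 higher in eWAT. Over all symbols 10397 of 14308 called ones were higher in eWAT by that offset. Thrsp, the lipogenic Spot 14 protein, was at 670.4 ± 157 RPKM (SD, n=6) in BAT, 156 ± 23.2 in iWAT and 395 ± 153 in eWAT. Its log2 fold change was -2.28 (SE 0.26, adjusted p = 3.74e-07 by edgeR) for iWAT against BAT and -1.78 (SE 0.26, adjusted p = 5.61e-06) for eWAT, where it was smaller per length (adjusted p = 0.00133). Ppargc1b, a coactivator, was at 13.4 ± 0.79 RPKM in BAT, 1.55 ± 0.20 in iWAT and 1.17 ± 0.27 in eWAT, with log2 fold changes of -3.29 (SE 0.14, adjusted p = 9.70e-13 by edgeR) and -4.37 (SE 0.15, adjusted p = 4.13e-14), the latter -3.74 per length. Nr1h2, which encodes the liver X receptor beta, and Mbtps1, the protease that starts the cleavage of SREBP, were higher in iWAT than in eWAT in reads, by 0.42 (SE 0.10, adjusted p = 0.00566 by edgeR) and 0.27 (SE 0.07, adjusted p = 0.00977). Per length both were higher in eWAT, Nr1h2 at 14.7 RPKM against 11.3 in iWAT (-0.33, adjusted p = 0.0106 by edgeR) and Mbtps1 at 9.27 against 6.02 (-0.57, adjusted p = 2.20e-06), so their direction rested on the row used. Srebf2, the paralog of Srebf1 that acts mainly on cholesterol genes, was not called between iWAT and BAT (0.09, adjusted p = 0.683 by edgeR) or eWAT and BAT (0.03, adjusted p = 0.875), and was named after its values were seen.

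The separate mitochondrial fatty acid synthesis pathway, which makes octanoate for lipoic acid, was mostly higher in BAT. Of 9 genes tested, 8 were higher in BAT than in iWAT and 8 higher than in eWAT, beside 28.1% and 31.0% of all symbols, and none was lower. The eWAT count is in reads. With row length as an offset 6 of 9 were higher in BAT than in eWAT, and Cbr4, at 9.89 RPKM in BAT and 13.8 in eWAT, was higher in eWAT (0.26, adjusted p = 0.0296 by edgeR). Over all symbols 10397 of 14308 called ones were higher in eWAT by that offset. Ndufab1, the acyl carrier protein, was at 24.6 ± 1.47 RPKM (SD, n=6) in BAT, 7.23 ± 0.57 in iWAT and 10.7 ± 2.16 in eWAT, with log2 fold changes of -1.94 (SE 0.13, adjusted p = 1.79e-10 by edgeR) and -2.41 (SE 0.13, adjusted p = 9.32e-12). Acsf3, which makes mitochondrial malonyl-CoA, was at 21.1 ± 1.96 RPKM in BAT, 7.38 ± 0.33 in iWAT and 8.59 ± 1.83 in eWAT, with log2 fold changes of -1.69 (SE 0.12, adjusted p = 7.41e-10 by edgeR) and -2.28 (SE 0.13, adjusted p = 1.31e-11). For eWAT against BAT these were -1.43 and -1.53 per length. Both were also higher in iWAT than in eWAT in reads, at 0.46 (adjusted p = 0.00953 by edgeR) and 0.58 (adjusted p = 0.00171), while per length Ndufab1 was higher in eWAT (-0.52, adjusted p = 0.00166) and Acsf3 did not pass (-0.17, adjusted p = 0.274).

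**Figure D5:**
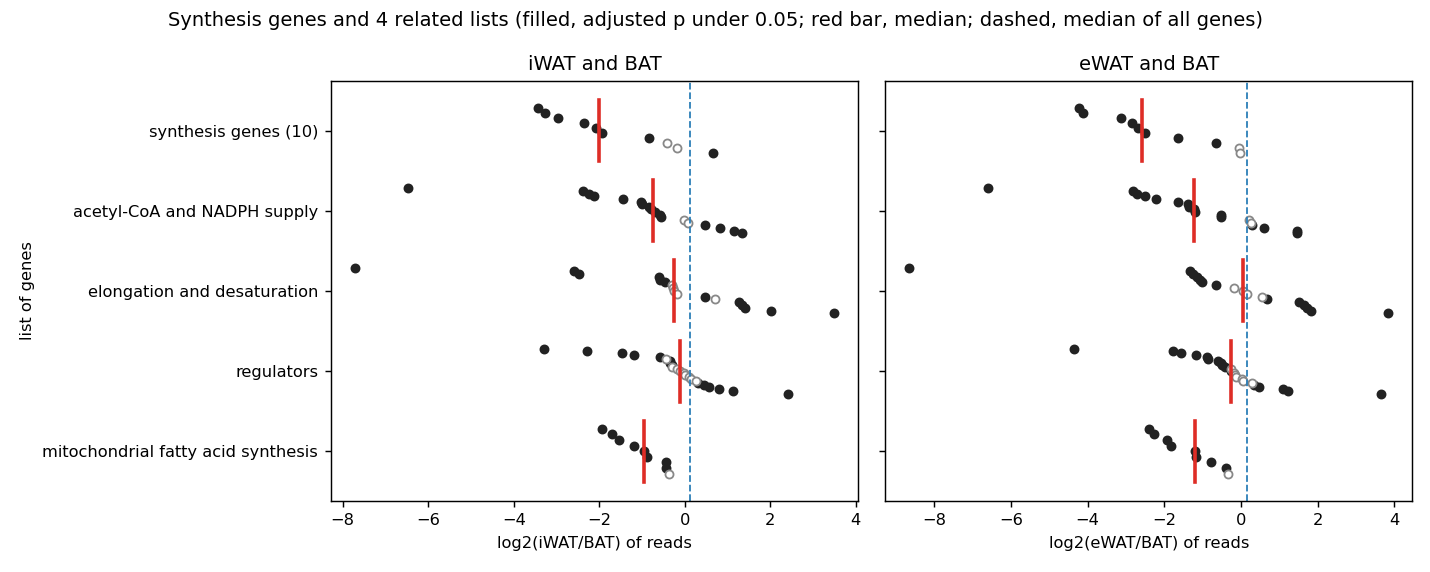
The log2 fold change of reads is on the horizontal axis and the 10 synthesis genes and 4 related lists on the vertical axis. Each point is a gene, filled where it passed the test, red bars are list medians and the dashed line is the median of all symbols. The 10 synthesis genes have medians of -2.01 and -2.59, and Elovl3 is the point farthest to the left, at -7.72 and -8.66.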

How the data were processed

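Total RNA was sequenced from iWAT adipocytes, eWAT adipocytes and BAT (6 samples each). According to the submitters' processing notes, reads were trimmed with cutadapt 1.16 and aligned with HISAT2 2.1.0 to mm9. The study's methods name the Genomatix Genome Analyzer for the expression analysis, and its version and way of counting are not given in the sources used here. For each gene or transcript the authors deposited read counts and RPKM values. The symbol row with the most reads was used, from merged gene rows (53445 per file) in iWAT and BAT and from transcript rows (189660 per file) in eWAT. Of the 27301 rows identical in all files, those with at least 10 reads in 6 or more samples gave the TMM factors. A minimum of 10 reads in 6 or more samples was required of a symbol, and all such symbols were tested in 1 edgeR fit (version 4.0.16, R 4.3.3) of all 18 samples, with the depot as the only term. DESeq2 1.42.0 and limma 3.58.1 on log2(RPKM + 0.1) or log2(RPKM + 1) were alternatives. Other alternatives were other filters, scalings, rows and samples, each library left out in turn, and the title number as a block. The fit was tested on simulated data. Of each of the 4 pathway lists, 2 genes were named per comparison, those whose called log2 fold change was farthest from 0 and whose mean was at least 5 RPKM in the higher depot. The 5 genes most like the 10 were named as well, and Adipoq and Ucp1 as checks. The 10 genes and the lists were chosen with earlier results of these data known. Promoters were 250-base windows from RefSeq. Of the 70 listed pathway genes, 69 were matched by symbol.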

Additional observations from a re-analysis of the deposited data

Results flagged for a closer look

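Of 30 sets of 6 RPKM values (10 genes in 3 depots), 1 held a sample far from the others by Dixon's test, where chance alone gives about 1.5. Acacb was 1.89 RPKM in the eWAT sample numbered 15, against 6.28 to 7.94 RPKM in the other 5 eWAT samples. The gap to the nearest sample was 0.727 of the whole range, above Dixon's critical value for 6 samples. Without this sample the log2 fold change of Acacb for eWAT against BAT was -4.06 (adjusted p = 2.48e-11 by edgeR), beside -4.24 with it.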

How the results depend on the processing

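The count of the 10 genes called between iWAT and BAT stayed at 7 to 9, and that between eWAT and BAT at 6 to 8, under every alternative in which all 10 could be tested. Under limma on either scale 1 of the 8 called between eWAT and BAT was higher in eWAT, and with summed transcript rows 3 of 6 were. Over all symbols 11504 of 14774 called ones were with log2(RPKM + 0.1), 11398 of 14642 with log2(RPKM + 1) and 14779 of 16763 with summed rows. Between iWAT and eWAT the count of 4 was 1 with limma on log2(RPKM + 0.1) or log2(RPKM + 1), 2 without TMM factors, 1 with the 12 samples alone, 2 with row length as an offset, 9 with summed transcript rows, 1 without the 3 libraries with markers of other tissues, and 0 to 4 when a library was left out. With only identical rows Scd2 alone could be tested, and edgeR called it in 0 of the 3 comparisons (0 at an unadjusted p under 0.05).

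Over all symbols, 3548, 3828 and 727 were called with only identical rows between iWAT and BAT, eWAT and BAT, and iWAT and eWAT, where fewer rows were tested. The 4742 symbols called between iWAT and eWAT became 9642 and 9492 with limma, 9342 with row length as an offset and 15550 with summed transcript rows. Between eWAT and BAT 7374 of 13078 called symbols were higher in eWAT, and 10397 of 14308 with row length as an offset. Without TMM factors the median log2 fold change of all symbols was 0.28, 0.36 and -0.01. Of the other pathway genes 20 were called between iWAT and eWAT, beside 42 and 40 with limma, 40 with row length, 66 with summed rows and 13 without iWAT 7.

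Signs turned as follows. With summed transcript rows, eWAT against BAT gave 0.36 for Acly, 1.55 for Me1, 0.30 for Scd1, 1.97 for Scd2 and 3.29 for Srebf1. With the same rows, iWAT against eWAT gave -1.23 for Acaca, -1.13 for Acacb, -0.39 for Elovl6, -1.84 for Fasn, -1.96 for Me1, -2.06 for Mlxipl, -1.14 for Scd1 and -2.64 for Srebf1. In these the eWAT rows count shared reads repeatedly. Acaca for iWAT against eWAT was -0.10 with limma on log2(RPKM + 0.1), -0.10 on log2(RPKM + 1) and -0.12 with row length. Scd2 for eWAT against BAT was 0.23 and 0.23 with limma on the 2 scales and 0.22 without TMM factors. Srebf1 for eWAT against BAT was 0.66 and 0.65 with limma, 0.20 without TMM factors, 0.37 with row length and 0.022 without the 3 libraries. Acly for iWAT against eWAT was 0.030 without those libraries. With a library left out, Acly ranged from -0.27 to 0.16 for iWAT against eWAT, Scd2 from -0.18 to 0.18 for eWAT against BAT and from -0.34 to 0.010 for iWAT against BAT, and Srebf1 from -0.22 to 0.086 for eWAT against BAT. Apart from the row effect, the cause was not tested.

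The number in the sample titles is not explained in the labels, and whether it marks a mouse is not known. Over all symbols tested, the mean correlation of same-numbered samples was 0.03 for iWAT and BAT (4 pairs), -0.03 for eWAT and BAT (4 pairs) and -0.09 for iWAT and eWAT (5 pairs). The mean deviation of the 10 genes was above 0 in every depot for number 7 (0.58, 0.39 and 0.15 in iWAT, eWAT and BAT). It was below 0 for number 13 (-0.48, -0.11 and -0.22). Numbers 8 and 12 also kept their sign, while numbers 11, 14 and 15 changed it between depots. So few pairs do not settle a pairing. With the number as a replicate block, 8, 7 and 2 of the 10 genes were called in the 3 comparisons. The calls lost were Me1 for eWAT against BAT (-0.55, adjusted p = 0.102 by edgeR) and Scd1 (0.81, adjusted p = 0.0735) and Srebf1 (0.74, adjusted p = 0.0547) for iWAT against eWAT, and Scd2 and Srebf1 were 0.079 and 0.21 for eWAT against BAT.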
